A study of Mus musculus with 6 samples.

Results

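Integrins are cell-surface receptors that tie the cytoskeleton to the extracellular matrix, and laminins are the matrix proteins to which several of them bind. All genes of the deposited table were taken whose symbol names an integrin alpha or beta subunit by number (with Itga2b and Itgav) or a numbered laminin alpha, beta or gamma chain. This gave 32 of 55413 genes, namely 13 integrin alpha, 8 integrin beta and 11 laminin chain genes. The choice went by symbol, with the record of highest mean kept if a symbol repeats, and earlier results of these data were known. C2C12 cells, a mouse myoblast line that forms myotubes, gave 3 RNA-seq libraries labelled WT and 3 labelled FHL3 KO, the latter called KO-labelled here. Cells had been grown with 10% fetal bovine serum, and all 6 libraries were taken at day 4 of differentiation with 2% horse serum. Whether the libraries of a group stem from different cultures is not stated, so the p-values describe only the spread among these samples, which may be technical. No clone, guide or deleted part of Fhl3 is named in the labels, and clone and genotype cannot be told apart.

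Each integrin is a pair of an alpha and a beta subunit, and the alpha subunit largely sets the ligand. Each laminin is a trimer of an alpha, a beta and a gamma chain, and laminins polymerise into the sheet on which the basement membrane is built. Mature skeletal muscle anchors to laminin with an alpha2 chain through the integrin of Itga7 and Itgb1 and through dystroglycan, and loss of the alpha2 chain or of Itga7 causes muscular dystrophy. FHL2 and FHL3, LIM-domain proteins of striated muscle, have been described as binding partners of the cytoplasmic tails of Itga7 and Itgb1.

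Levels are given as FPKM, a read count divided by gene length and library size, so levels of different genes can be compared. The targeted gene, Fhl3 (ENSMUSG00000032643, chr4:124700701-124708611, plus strand, GRCm38), stood at 27.8, 30.03 and 33.7 FPKM in the WT libraries, against 57.2, 53.5 and 58.9 FPKM in the KO-labelled ones, and was called higher there by limma (adjusted p = 0.000547). Fhl3 RNA thus goes against the label. The table does not show which exons were covered, and the libraries are named by their labels throughout. The summed FPKM lay between 424987 and 494176 per library. WT replicate 1 held liver transcripts, with a summed level of 120 FPKM over 8 genes such as Alb against at most 0.0221 FPKM in any other library. Long transcripts were also relatively high in it, with a slope of 0.08 in log2 level per doubling of exon length relative to the mean of the 6 libraries, against -0.06 to 0.04 in the others. This bears on integrins and laminins because 18 of the 20 genes tested here were longer than the median tested gene. Markers of endothelium and leukocytes were near 0, as the summed FPKM of 10 endothelial genes was at most 1.97 and that of 10 leukocyte genes at most 2.91 in any library. Platelet markers summed to at most 0.781 FPKM in WT and 5.50 FPKM in KO-labelled libraries, with Pf4, Ppbp and Gp6 at 0 in all. Schwann cell markers summed to 22.03 to 23.3 FPKM in WT and 33.1 to 36.8 FPKM in KO-labelled libraries, nearly all from Erbb3, whereas 15 myotube genes summed to between 5365 and 12770 FPKM.

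Of the 32 genes, 20 reached a group mean of 1 FPKM in WT or KO-labelled cells and were tested. Limma, with p-values adjusted over all 12528 genes tested and a threshold of 0.05, called 2 higher and 6 lower in the KO-labelled libraries. That is 40.0% of those tested, against 40.8% of all tested genes (19.7% higher and 21.2% lower), so the share called is close to that of the table as a whole. For 11 of the 20 the groups were without overlap, where 53.8% of all tested genes had such groups. The median log2 difference was -0.06, and it was -0.005 over all genes. With each library scaled to the same FPKM sum, the median difference over all genes became -0.10 and 36.1% of all calls were higher in place of 48.2%, while 2 members were called higher and 8 lower.

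**Figure D1:**
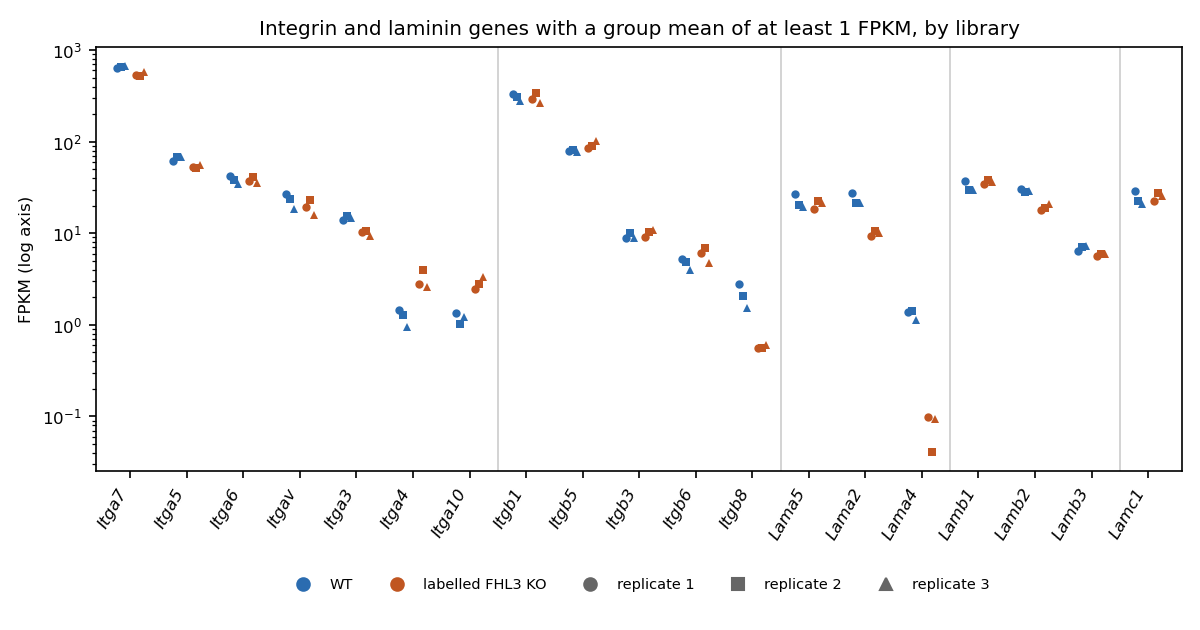
FPKM (log axis) of 19 tested integrin and laminin genes in each library, with WT in blue, the KO-labelled libraries in orange, and the marker shape giving the replicate number. Itga7 and Itgb1 lie above the other genes of their class in every library, and Lama4 and Itgb8 show the widest gaps between the groups.

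By RNA, the subunits of the laminin receptor of muscle, Itga7 and Itgb1, were the highest of their class in both groups. Itga7 (ENSMUSG00000025348, chr10:128933818-128958282, plus strand), the alpha subunit, stood at 636, 654 and 666 FPKM in the WT libraries, against 537, 522 and 582 FPKM in the KO-labelled ones. Every KO-labelled library was thus below every WT library, with means of 652 ± 15 FPKM in WT and 547 ± 31 FPKM (SD, n = 3 each), or 83.9% of WT. The log2 difference of -0.25 (95% interval -0.46 to -0.05) did not pass limma (adjusted p = 0.0551). It passed in 4 of 15 alternatives. These were libraries scaled to the same sum (-0.36, adjusted p = 0.0112), quantile normalization (-0.57, 0.00269), removal of the trend with length and GC content (-0.35, 0.00855) and genes of at least 5 FPKM (0.0494). It did not pass with median-of-ratios scaling (0.1099), the replicate number as a block (0.1075), no filter (0.1219) or a pseudocount of 0.1 (0.0533). Nor did it pass with any library left out (0.0545 to 0.169), and it shrank to -0.11 (0.425) after removal of the trend with length alone. In bulk RNA, fewer cells of a type and less RNA per cell cannot be told apart. Each gene has 1 value per library, so the splice forms of Itga7 are not resolved. Itga7 took 81.0%, 81.5% and 82.8% of the summed FPKM of all 13 alpha subunits in WT and 81.1%, 79.5% and 82.7% in the KO-labelled libraries, and these ranges overlap.

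Itgb1 (ENSMUSG00000025809, chr8:128685654-128733200, plus strand), the beta subunit that pairs with Itga7 and with most other alpha subunits expressed here, stood at 335, 307 and 278 FPKM in the WT libraries, against 296, 336 and 266 FPKM in the KO-labelled ones. The groups overlapped, and the log2 difference was -0.04 (95% interval -0.31 to 0.23, limma adjusted p = 0.818). Its share of the summed FPKM of the beta subunits was 76.0% ± 1.3 and 72.9% ± 3.3 (SD, n = 3, exact two-sided permutation p = 0.2). The summed alpha subunits were at 785, 802 and 804 FPKM in the WT libraries, against 663, 657 and 704 FPKM in the KO-labelled ones, without overlap. The summed beta subunits were at 433, 407 and 371 FPKM and at 399, 446 and 385 FPKM, with overlap. The alpha difference had an exact permutation p of 0.1, the smallest that 3 against 3 libraries allow, and the beta difference one of 0.8. Itga7 made up on average 81.8% of the alpha sum in WT and 81.1% in the KO-labelled libraries. The alpha sum thus largely repeats the Itga7 difference, which did not pass limma (adjusted p = 0.0551).

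The other laminin-binding alpha subunits differed from each other. Itga6, whose integrin binds a broad range of laminins and marks muscle stem cells and myoblasts, stood at 42.6, 37.9 and 34.7 FPKM in the WT libraries, against 37.0, 41.6 and 35.0 FPKM in the KO-labelled ones. The groups overlapped fully (log2 difference -0.02, 95% interval -0.26 to 0.22, limma adjusted p = 0.898). Itga3 (chr11:95044474-95076801, minus strand), which binds laminins with alpha3 and alpha5 chains, stood at 13.9, 15.4 and 14.6 FPKM in the WT libraries and fell to 10.3, 10.7 and 9.30 FPKM. The highest KO-labelled library was below the lowest WT library, the log2 difference was -0.49 (SE 0.09) and the limma adjusted p was 0.00478. This call held under each alternative run, with adjusted p from 0.00124 to 0.0302.

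Among the receptors for fibronectin and other matrix proteins, Itga5 fell. Itga5 (chr15:103344286-103366763, minus strand), whose integrin with Itgb1 is the classical fibronectin receptor, was the alpha subunit with the highest level after Itga7. It stood at 62.1, 67.7 and 67.9 FPKM in the WT libraries, against 52.4, 51.7 and 55.1 FPKM in the KO-labelled ones, and the groups did not overlap. The fall was small, at 80.6% of the WT mean (log2 difference -0.31, SE 0.07, limma adjusted p = 0.0149). The call ended without WT replicate 2 (log2 difference -0.29, adjusted p = 0.0713) and without the KO-labelled replicate 1 (-0.30, 0.0562), with differences of nearly the same size from fewer libraries. It grew to -0.49 after removal of the trend with length and GC content. Itgav, the alpha subunit shared by the receptors that recognise the sequence RGD in vitronectin and in latent TGF-beta, stood at 26.9, 23.6 and 18.4 FPKM in the WT libraries, against 19.5, 23.0 and 15.8 FPKM in the KO-labelled ones. The groups overlapped (log2 difference -0.23, 95% interval -0.63 to 0.17, limma adjusted p = 0.31).

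Of the beta subunits that pair with Itgav, Itgb8 was called and Itgb1, Itgb3, Itgb5 and Itgb6 were not. Itgb8 (chr12:119158022-119238802, minus strand), which holds latent TGF-beta for activation, stood at 2.79, 2.04 and 1.51 FPKM in the WT libraries, against 0.557, 0.560 and 0.598 FPKM in the KO-labelled ones. Every WT library was above every KO-labelled library, and the means of 2.11 ± 0.64 and 0.572 ± 0.023 FPKM (SD, n = 3) put the latter at 27.1% of WT. The log2 difference was -0.96 (SE 0.17, limma adjusted p = 0.00384). On this scale a pseudocount of 1 compresses low values, and with a pseudocount of 0.1 the difference was -1.68. Itgb8 is a long transcript and was highest in WT replicate 1, and after removal of the trend with length and GC content the difference was -0.50 (adjusted p = 0.0251). Itgb8 passed the filter only through its WT mean, which favours a difference, so these p-values are no separate support.

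Itgb5, which pairs only with Itgav and binds vitronectin, was the beta subunit with the highest level after Itgb1. It stood at 80.0, 81.4 and 77.4 FPKM in the WT libraries, against 85.5, 90.6 and 101.9 FPKM in the KO-labelled ones. The groups did not overlap, but the log2 difference of 0.21 did not pass limma (95% interval 0.01 to 0.41, adjusted p = 0.0829) and was -0.02 after removal of the trend with length and GC content. Itgb3, the vitronectin receptor subunit known from platelets and osteoclasts, was at 9.28 ± 0.65 and 10.1 ± 0.81 FPKM (SD, n = 3) with overlapping groups (limma adjusted p = 0.42). Itgb6, best known from epithelia, was at 5.29, 4.83 and 3.96 FPKM in the WT libraries, against 6.08, 6.92 and 4.70 FPKM in the KO-labelled ones, also with overlap (log2 difference 0.27, adjusted p = 0.193). The Itgb6 difference passed after quantile normalization (0.40, adjusted p = 0.0389) and after removal of the trend with length (0.38, 0.0416) or with length and GC content (0.52, 0.00627). The epithelial marker Epcam was at 0 in all libraries, and 10 epithelial markers summed to 7.997 to 10.8 FPKM in WT and 5.28 to 6.72 FPKM in the KO-labelled libraries. Of these 10, 2 were tested and they went opposite ways. Krt14, which made up most of the sum, fell from 8.53 ± 1.8 to 4.35 ± 0.46 FPKM, while Cdh1 rose from 0.0522, 0.0121 and 0.00971 FPKM to 0.969, 1.51 and 0.969 FPKM (SD, n = 3, limma adjusted p = 0.00467 and 0.0016). Cdh1 passed the filter only through its KO-labelled mean, so its p-value is no separate support. Cldn4, not tested, was at 0.0575 FPKM or less in WT and between 0.124 and 0.277 FPKM in the KO-labelled libraries. Their part in the Itgb6 and Lamb3 values was not tested.

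The genes called higher were Itga4 and Itga10, both at low levels. Itga4 (ENSMUSG00000027009, chr2:79255426-79333123, plus strand), a receptor subunit for Vcam1 and fibronectin, stood at 1.46, 1.26 and 0.935 FPKM in the WT libraries and rose to 2.78, 3.98 and 2.58 FPKM in the KO-labelled libraries. The lowest KO-labelled library was above the highest WT library, and the mean was 2.55 times the WT mean (log2 difference 0.88, SE 0.17, limma adjusted p = 0.00541). After removal of the trend with length and GC content the log2 difference was 1.36. Itga10 (ENSMUSG00000090210, chr3:96645584-96664519, plus strand), a collagen-binding subunit known from cartilage, stood at 1.35, 1.02 and 1.22 FPKM in the WT libraries and rose to 2.47, 2.79 and 3.35 FPKM, or 2.40 times the WT mean (log2 difference 0.81, SE 0.13, adjusted p = 0.0031). Both calls held under each alternative that kept these genes in the test, with adjusted p of at most 0.0313. They were not tested with a filter of 5 FPKM. Of the exon bases of Itga10, 33.5% are shared with the annotated gene Gm42957, which was at 0.0675 FPKM or less, and 8.04% of those of Itga4 lie opposite exons of Cerkl, at 0.158 to 0.371 FPKM. The counting rule for reads in such overlaps is not known here, and their part in the values was not tested.

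The sequences just before the start sites of both genes are shown because these are the members that rose and because RefSeq and GENCODE place their start at the same base. They are the 250 bases upstream of the start, 5′ to 3′ on the strand of the gene, from RefSeq's promoters on GRCm38.p6, at chr2:79255176-79255425 for Itga4 and chr3:96645334-96645583 for Itga10, both on the plus strand. Capitals mark CANNTG, the E-box to which myogenic factors such as Myod1 and Myog can bind, and CATTCC, the core of the MCAT element of TEAD factors, each searched on both strands.
Itga4: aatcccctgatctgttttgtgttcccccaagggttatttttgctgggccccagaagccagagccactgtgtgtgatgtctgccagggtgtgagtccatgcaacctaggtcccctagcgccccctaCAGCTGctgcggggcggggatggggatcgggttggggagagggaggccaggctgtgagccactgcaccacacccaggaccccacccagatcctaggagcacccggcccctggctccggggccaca
Itga10: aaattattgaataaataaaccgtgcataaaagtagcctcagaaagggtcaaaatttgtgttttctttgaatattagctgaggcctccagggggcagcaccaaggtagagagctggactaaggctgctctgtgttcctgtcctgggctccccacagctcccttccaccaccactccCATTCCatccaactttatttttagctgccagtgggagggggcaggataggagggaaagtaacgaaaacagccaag
The Itga4 stretch holds 1 match to CANNTG, starting 125 bases before the start site, in the form CAGCTG, and none to CATTCC. The Itga10 stretch holds 1 match to CATTCC and none to CANNTG. Of 32851 RefSeq promoter stretches of this length, 66.2% hold CANNTG, 13% CAGCTG and 12.6% CATTCC. GCCATNTT, a core of the YY1 motif, is in 3.91% of them, and TGANTCA, the AP-1 motif, in 6.75%, and neither is in these stretches. GGGCGG, the GC box, is in 32.7% of all and once in that of Itga4. CAGCTG is a form of CANNTG, so those matches overlap. Such matches are a description of the sequence and no evidence of binding.

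**Figure D2:**
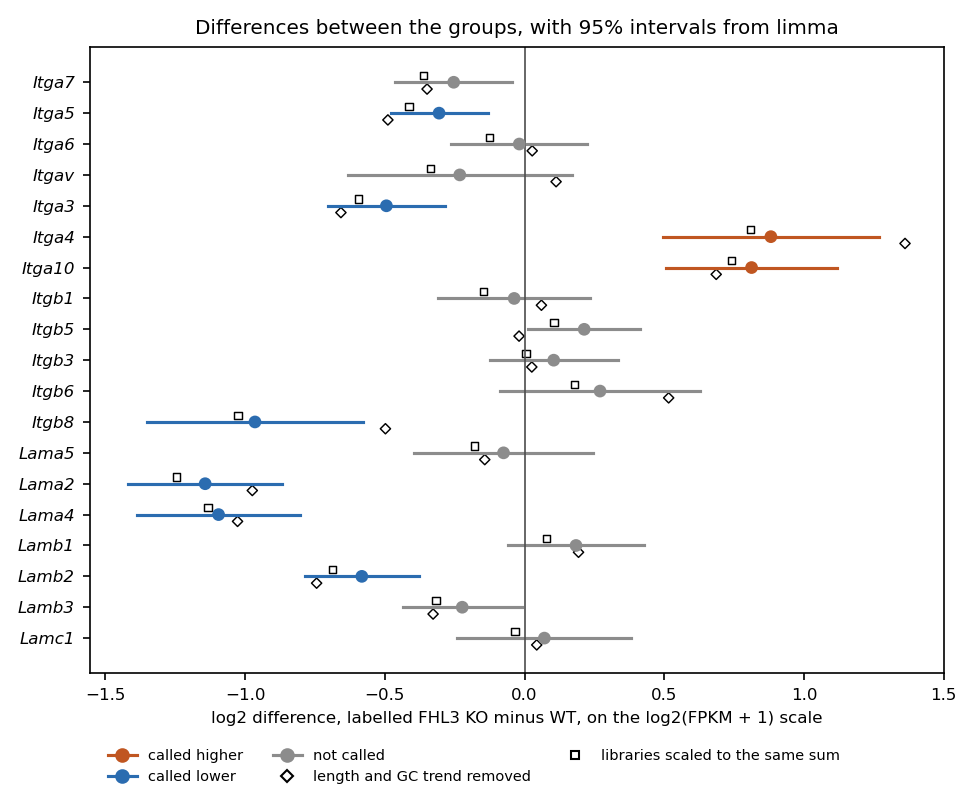
Log2 difference (KO-labelled minus WT, on the log2(FPKM + 1) scale) of 19 tested integrin and laminin genes, each as a point with its 95% limma interval, coloured by call. Open diamonds give the value with the trend on exon length and GC content taken out of each library, and open squares the value with libraries scaled to the same sum. Lama2, Lama4, Itgb8, Lamb2, Itga3 and Itga5 lie below 0 and Itga4 and Itga10 above 0 in all 3 versions. Some genes that were not called, such as Itga7, Lama5 and Lamb1, also keep their sign in all 3.

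Among the laminin alpha chains, Lama2 and Lama4 fell while Lama5 did not differ beyond its spread. Lama2 (ENSMUSG00000019899, chr10:26980036-27619758, minus strand), the alpha chain of the laminins of mature muscle, stood at 27.6, 21.5 and 21.2 FPKM in the WT libraries, against 9.32, 10.6 and 10.1 FPKM in the KO-labelled ones. The groups were far apart, with a mean of 42.7% of WT (log2 difference -1.14, SE 0.12, limma adjusted p = 0.000501). WT replicate 1 was the highest library, and without it the log2 difference was -1.03 (adjusted p = 0.0011). Over the alternatives it lay between -1.25 and -0.86 and was called in each.

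Lama4 (ENSMUSG00000019846, chr10:38965515-39110188, plus strand), the alpha chain of the laminins around blood vessels, nerve and developing muscle, stood at 1.38, 1.42 and 1.12 FPKM in the WT libraries, against 0.0983, 0.0408 and 0.0937 FPKM in the KO-labelled ones. It was thus low in WT and close to 0 in the other group, at 5.95% of the WT mean. The log2 difference was -1.10 (SE 0.12, limma adjusted p = 0.000751), and -2.99 with a pseudocount of 0.1, so its size depends on the pseudocount. Lama4 passed the filter only through its WT mean, which favours a difference, so this p-value is no separate support. As a share of Lama2, Lama4 was at 4.99%, 6.59% and 5.27% in WT and at 1.06%, 0.385% and 0.928% in the KO-labelled libraries. This ratio rests on the same Lama4 values, so it is no separate support either.

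Lama5, the alpha chain of the broadly expressed laminins of adult basement membranes, stood at 26.8, 20.2 and 19.5 FPKM in the WT libraries, against 18.6, 22.7 and 21.2 FPKM in the KO-labelled ones, with overlap (log2 difference -0.08, 95% interval -0.39 to 0.24, limma adjusted p = 0.683). The make-up of the alpha chains differed between the groups. Lama2 took 49.4%, 49.8% and 50.7% of the summed FPKM of the 5 alpha chains in WT and 33.2%, 31.7% and 32.1% in the KO-labelled libraries. Lama5 took 48.0%, 46.7% and 46.5% and then 66.1%, 68.0% and 67.5%. These shares do not depend on the scaling of a library, and their replicates lay within a few percentage points of each other. Each difference had an exact permutation p of 0.1, or 0.3 after adjustment over the 12 shares compared. Lama2 and Lama5 together made up nearly all of the sum, so a lower share of Lama2 raises that of Lama5. Their share differences are thus not separate results.

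The summed level of fibroblast markers was also lower beside these chains. Of 10 such markers 6 were tested, with 3 called lower (Ly6a, Dcn and Postn) and 2 higher (Pdgfrb and Mfap5). The list summed to 856 to 890 FPKM in WT and to 298 to 320 FPKM in the KO-labelled libraries, and Ly6a alone averaged 608 and 276 FPKM. Thy1 and Tcf21 were at 0 in all libraries. The 15 myotube markers summed to 5365 to 5885 FPKM in WT and to 12210 to 12770 FPKM in the KO-labelled libraries, and Acta1 alone averaged 1927 and 5461 FPKM. Of the 15, 12 were called higher (40.8% of all tested genes were called in either direction). The other 3, Des, Neb and Ttn, were not called, and the mean of Ttn was lower in the KO-labelled libraries. The part of either shift in the laminin values was not tested.

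Of the laminin beta chains, Lamb2 fell. Lamb2 (ENSMUSG00000052911, chr9:108479736-108490530, plus strand), the beta chain enriched at the neuromuscular junction, stood at 30.5, 28.5 and 28.6 FPKM in the WT libraries, against 17.7, 18.8 and 21.01 FPKM in the KO-labelled ones. The groups did not overlap, and the mean was 65.8% of WT (log2 difference -0.58, SE 0.09, limma adjusted p = 0.00228, called under each alternative run). Lamb1, the more widespread beta chain, stood at 37.0, 29.4 and 29.9 FPKM in the WT libraries, against 34.7, 37.97 and 36.6 FPKM in the KO-labelled ones, with overlap through WT replicate 1 (log2 difference 0.18, adjusted p = 0.191). It was called higher without WT replicate 1 (0.29, adjusted p = 0.0367) and after removal of the trend with length (0.37, 0.00728), but not after removal of the trend with length and GC content (0.19, 0.0867).

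Lamb1 took a larger part of the beta chains in the KO-labelled libraries, with 59.7%, 60.6% and 57.6% of their summed FPKM against 50.0%, 45.3% and 45.4% in WT. The share of Lamb2 was 30.5%, 30.1% and 33.1% against 41.2%, 43.8% and 43.5%. Neither set of shares overlapped between the groups (exact p = 0.1 each, 0.3 adjusted). Lamb1 and Lamb2 made up most of the same sum, so their share differences are not separate results. Lamb3, the beta chain of the epithelial laminin that anchors skin, averaged 6.95 ± 0.42 FPKM in WT against 5.80 ± 0.12 FPKM in KO-labelled cells (SD, n = 3). Its groups did not overlap, and it did not pass limma (log2 difference -0.22, adjusted p = 0.0867). It passed with libraries scaled to the same sum (-0.32, adjusted p = 0.0404) and after removal of the trend with length and GC content (-0.33, 0.0116).

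The gamma chain Lamc1 was not called. Lamc1, the gamma chain of nearly all muscle laminins, stood at 28.6, 22.5 and 20.8 FPKM in the WT libraries, against 22.4, 27.7 and 25.2 FPKM in the KO-labelled ones (log2 difference 0.07, 95% interval -0.24 to 0.38, limma adjusted p = 0.693). Lama3, an alpha chain of epithelia, was at most at 0.103 FPKM in any library.

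Set against Lamc1, the sum of the alpha chains was lower. This sum mainly restates the fall of Lama2, whose mean was 23.4 FPKM in WT and 10.0 FPKM in the KO-labelled libraries. Lama5, at 22.2 and 20.8 FPKM, did not differ beyond its spread. The summed alpha chains came to 195.2%, 191.9% and 201.4% of Lamc1 in WT and to 125.2%, 120.7% and 124.9% in the KO-labelled libraries, a gap larger than the spread of the replicates (exact p = 0.1, the smallest possible). The summed beta chains came to 258.5%, 288.4% and 316.3% of Lamc1 in WT and to 259.2%, 226.5% and 251.9%, with a slight overlap (exact p = 0.2). Both ratios are free of library scaling, and Lamc1 was chosen as the base after its values were seen. In level, the alpha sum was 47.0 ± 7.7 FPKM in WT and 31.0 ± 2.7 FPKM in the KO-labelled libraries, and the beta sum 68.2 ± 4.9 and 61.4 ± 2.9 FPKM (SD, n = 3, exact p = 0.1 each).

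**Figure D3:**
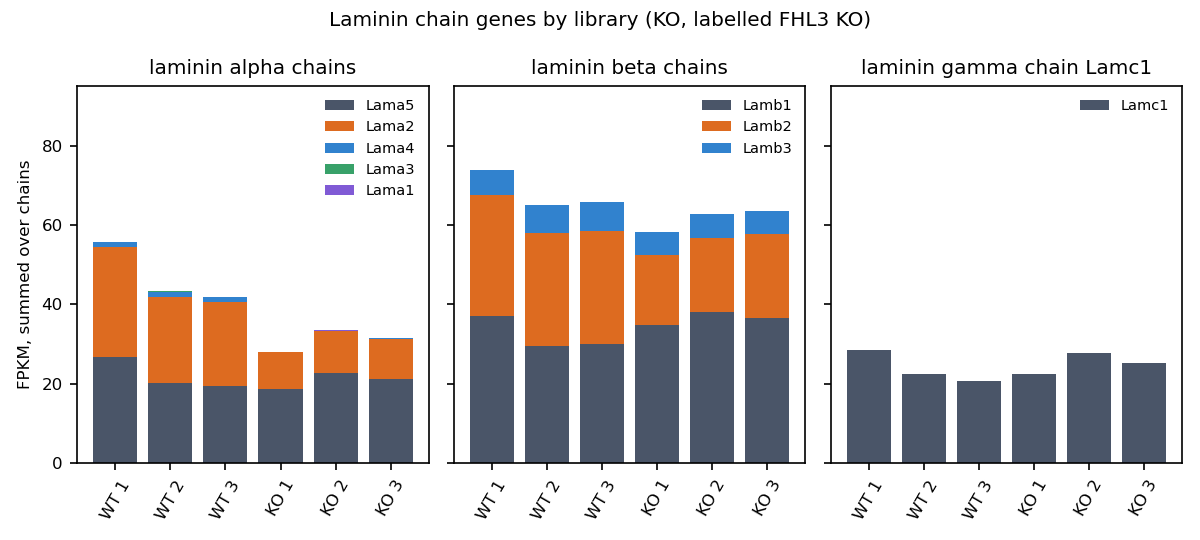
FPKM of the laminin alpha and beta chain genes, stacked by gene, and of the gamma chain gene Lamc1 in each library, with the KO-labelled libraries written as KO. The Lama2 and Lamb2 segments are shorter in the 3 KO libraries, while Lama5, Lamb1 and Lamc1 lie in the range of the WT libraries or close to it.

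The 12 genes below the filter held no library above 1.14 FPKM. The collagen-binding Itga1 and Itga2 were at 0.0427 FPKM or less in WT and were listed at 0 in every KO-labelled library, and Itga8 and Itga9 were at 0.0449 FPKM or less in all libraries. The collagen-binding Itga11 was at 0.0254, 0.0494 and 0.0533 FPKM in the WT libraries, against 0.161, 0.208 and 0.187 FPKM in the KO-labelled ones. The platelet subunit Itga2b was at 0.769 ± 0.26 and 0.815 ± 0.038 FPKM, and Itgb7, a leukocyte subunit that pairs with Itga4, at 0.690 ± 0.0084 and 0.805 ± 0.39 FPKM (SD, n = 3). Itgb2, the leukocyte beta subunit, did not exceed 0.171 FPKM and Itgb4, of the hemidesmosome, 0.435 FPKM. Lama1, the alpha chain of embryonic laminin, was at 0.0705 FPKM or less and Lamc3 at 0.286 FPKM or less. The leukocyte alpha subunits with letters in their names, which the rule leaves out, summed to at most 0.341 FPKM. By RNA, 7 alpha and 5 beta subunits thus had a mean of 1 FPKM or more in at least 1 group. Itgb8 did so in WT only, with a mean of 0.572 FPKM in the KO-labelled libraries. Protein was not measured.

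Genes that act beside the integrins were called in both directions, as were genes over the whole table (19.7% higher and 21.2% lower, 40.8% in all). Of 40 genes of the adhesion complex, the proteins that link integrin tails to actin, 36 were tested. Of these, 8 were called higher and 9 lower (47.2%, against 40.8% of all tested genes), with a median log2 difference of 0.001. The smallest p was that of Itgb1bp2, which encodes melusin, a muscle protein that binds the Itgb1 tail. It stood at 33.0, 34.5 and 35.2 FPKM in the WT libraries and rose to 139.5, 131.9 and 135.5 FPKM in the KO-labelled libraries (log2 difference 1.96, SE 0.07, limma adjusted p = 6.93e-06). Its level thus rose while that of Itgb1 did not differ beyond its spread. The adaptor Bcar1 rose from 28.1 ± 1.5 to 48.2 ± 1.2 FPKM and paxillin (Pxn), a scaffold of focal adhesions, from 30.02 ± 0.57 to 49.5 ± 1.5 FPKM, while Crk, which docks on both, fell from 48.1 ± 2.8 to 28.8 ± 2.9 FPKM (SD, n = 3, log2 differences 0.76, 0.70 and -0.72, adjusted p = 0.000412, 0.000412 and 0.0014).

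Of 25 other basement membrane genes 12 were tested, of which 3 were called higher and 8 lower (91.7%, against 40.8% of all tested genes). The median log2 difference was -0.51. Among those called lower, Hmcn2 passed the filter only through its WT mean, which favours a difference. Collagen IV, the network former that lies beside laminin, fell in both of its main chains, whose annotated genes overlap slightly at their ends. Col4a1 stood at 62.3, 63.4 and 62.0 FPKM in the WT libraries, against 28.9, 27.7 and 33.0 FPKM in the KO-labelled ones, and Col4a2 at 40.3, 42.5 and 45.6 FPKM and at 21.1, 22.4 and 27.6 FPKM (limma adjusted p = 0.000188 and 0.00148). Col18a1, the source of endostatin, rose from 17.4 ± 3.0 to 49.7 ± 7.0 FPKM, and Nid2, which bridges laminin and collagen IV, from 19.6 ± 1.3 to 35.6 ± 1.8 FPKM (SD, n = 3, adjusted p = 0.00047 and 0.000432). The other nidogen, Nid1, chosen after its values were seen, fell from 34.2 ± 3.4 to 21.5 ± 2.6 FPKM (limma adjusted p = 0.00422). In this list 6 genes fell after removal of the trend with length, and 5 without WT replicate 2, while 3 rose in each case.

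Other laminin receptors and the enzymes that glycosylate dystroglycan were all tested. Of these 18 genes 3 were called higher and 6 lower (50.0%, against 40.8% of all tested genes, median log2 difference -0.19). Syndecan Sdc4, which works with integrins in focal adhesions, rose from 23.8 ± 2.6 to 52.3 ± 1.4 FPKM, while Sdc3, a syndecan of nerve and muscle precursors, fell from 14.2 ± 1.3 to 6.27 ± 0.86 FPKM (SD, n = 3, limma adjusted p = 0.000241 and 0.000617). Of the glycosylation genes, Rxylt1 fell from 12.2 ± 0.48 to 8.40 ± 0.40 FPKM and Pomk rose from 3.92 ± 0.49 to 6.17 ± 0.13 FPKM (adjusted p = 0.00386 and 0.00673), and the Rxylt1 call ended after removal of the trend with length and GC content (adjusted p = 0.108). Dystroglycan itself (Dag1), chosen after its values were seen, was at 93.5, 92.7 and 86.5 FPKM in the WT libraries, against 92.7, 103.3 and 101.7 FPKM in the KO-labelled ones (log2 difference 0.12, 95% interval -0.06 to 0.31, adjusted p = 0.241). The list had 2 higher and 8 lower with libraries scaled to the same sum, 5 calls in all without WT replicate 2, and 5 without a filter on low values.

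Of 34 other integrin ligands 25 were tested, with 10 called higher and 6 lower (64.0%, against 40.8% of all tested genes, median log2 difference 0.09). Among those called higher, Fbln5 and Col6a2 passed the filter only through their KO-labelled means, which favours a difference. Osteopontin (Spp1), a ligand of Itgav and Itga4 integrins, stood at 352, 304 and 300.0 FPKM in the WT libraries and rose to 960, 1030 and 847 FPKM in the KO-labelled libraries (limma adjusted p = 0.000128). Thrombospondin Thbs2 fell from 61.0 ± 6.5 to 24.9 ± 1.6 FPKM (adjusted p = 0.000182), and the matricellular Ccn3 and Postn fell at log2 differences of -3.44 and -3.30. Of 16 tetraspanins and other membrane neighbours 15 were tested, with 7 higher and 1 lower (53.3%, against 40.8% of all tested genes, median 0.06). They had 5 higher and 4 lower after quantile normalization, and 4 higher and 1 lower without WT replicate 2. The caveolin of muscle, Cav3, rose from 32.4 ± 4.1 to 97.3 ± 3.6 FPKM, Slc3a2, which binds beta subunit tails, from 53.8 ± 6.8 to 89.3 ± 11 FPKM, Cd47, a partner of Itgb3 integrins, from 16.8 ± 0.40 to 22.8 ± 0.20 FPKM, and the tetraspanin Cd53 from 0.571 ± 0.047 to 1.85 ± 0.27 FPKM (SD, n = 3, limma adjusted p = 8.80e-05, 0.00384, 0.00387 and 0.00199). Cd53 passed the filter only through its KO-labelled mean, so its p-value is no separate support.

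**Figure D4:**
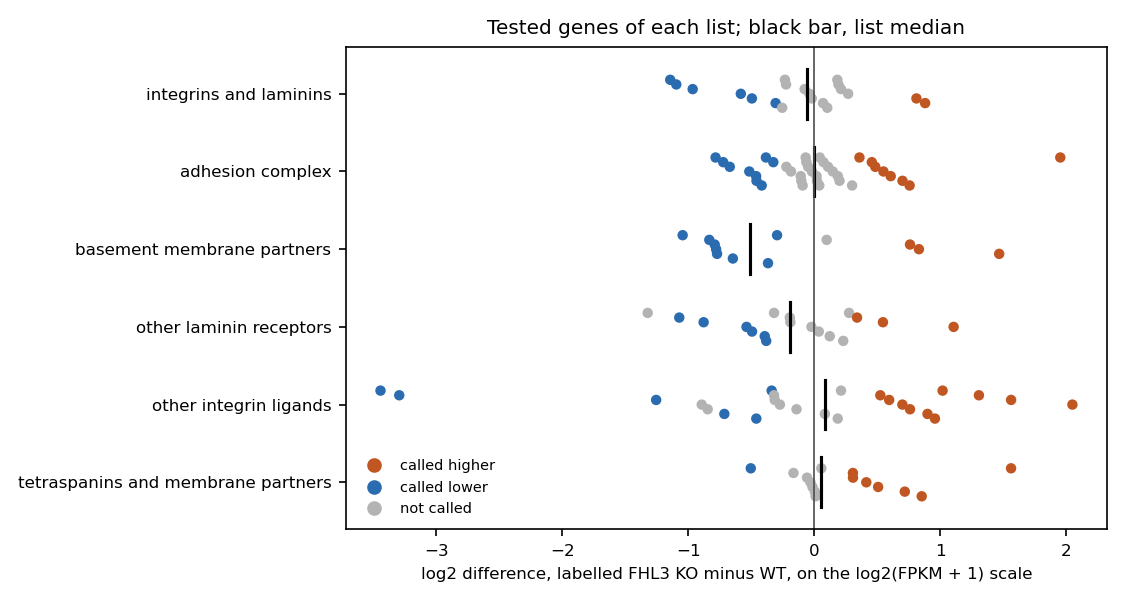
Log2 differences (KO-labelled minus WT, on the log2(FPKM + 1) scale) of the tested integrin and laminin genes and of 5 lists of genes that act with them, 1 point per gene, coloured by call, with the list median as a black bar. The basement membrane list has its median at -0.51, and the other medians lie between -0.19 and 0.09.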

How the data were processed

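The authors deposited 1 table for the 6 RNA-seq libraries, whose values are read here as FPKM from their form (decimals, with a sum that differs by column). The submitters' processing notes name Trim Galore 0.6.6, HISAT2 2.2.1, featureCounts 2.0.1, DESeq2 1.28.1 and mm10 without saying what each was used for. Annotation, strand setting and the making of the table: not given in the sources used here. Depth is therefore unknown, and a value of exactly 0 may be an estimate that failed.

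Of 55420 rows, 7 with a repeated gene ID were dropped. GENCODE M21 (GRCm38), which held 94.1% of the IDs, gave coordinates, exon length and GC content. Without counts, no count test was run. Genes reaching a group mean of 1 FPKM were fitted together as log2(FPKM + 1) in limma 3.58.1 (R 4.3.3; mean-variance trend, no covariates, two-sided, Benjamini-Hochberg, threshold 0.05), and the fit was tested on simulated data. This scale understates the change of low genes. A gene may pass the filter through a single group, which favours genes that differ. Among the called genes of the lists, Lama4, Itgb8, Cdh1, Cd53, Mfap5, Hmcn2, Fbln5 and Col6a2 did so. Shares and sums were compared by exact permutation.

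Members and lists were chosen with earlier results of these data known. Every integrin and laminin gene is counted, 1 tested gene that was not called is not reported here, the 4 genes of smallest p are named from each other list, and shares are given for chains with at least 5% of their class. RefSeq promoters were found for 21 of the 32 genes (chromosome 18 was not looked up). Alternatives were a pseudocount of 0.1, other filters (none, or 5 FPKM), quantile, equal-sum and median-of-ratios scaling, subtraction of spline trends (5 degrees of freedom) on length or on length plus GC, the replicate number as a block, each library left out and a threshold of 0.01. Those for class sums and for the last 3 lists were added after seeing the data.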

Additional observations from a re-analysis of the deposited data

How the results depend on the processing

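The plan held limma for normalized values and a count test for whole-number counts. The first was run, since the table holds no counts. The number of genes called over the whole table was 5112, 2695 at a threshold of 0.01, and 3272 to 5273 with a library left out (3272 without WT replicate 2). Members called higher numbered 2, with 0 under the filter at 5 FPKM, which removes both genes, 4 after removal of the trend with length, and 2 to 3 with a library left out. Members called lower numbered 6, and 5 to 6 with a library left out. Adhesion complex calls went from 17 to 11 at a threshold of 0.01 and to 12 to 18 with a library left out, and basement membrane calls from 11 to 8 to 10. With the replicate number as a block, 4759 genes were called over the table, 2 members higher and 6 lower, 15 adhesion complex and 10 basement membrane genes. Same-numbered deviations correlated at -0.127, -0.063 and 0.316, and differently numbered ones at between -0.376 and 0.368. With 3 libraries per group this cannot show whether the numbers pair the samples.

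Only differences that were not called changed sign, and the cause was not tested. The log2 difference of Itga6 was 0.0101 with median-of-ratios scaling, 0.149 after removal of the trend with length and 0.0273 after removal of that with length and GC content. The last gave 0.113 for Itgav, 0.0603 for Itgb1 and -0.0197 for Itgb5. Lama5 was at 0.145 after removal of the trend with length, and Lamc1 at -0.0343 with libraries scaled to the same sum. With a library left out, these differences lay between -0.0878 and 0.057 for Itga6, -0.123 and 0.0439 for Itgb1, -0.158 and 0.0638 for Lama5 and -0.0213 and 0.199 for Lamc1. The share differences of Itgb1 and Itgb5 were 0.65 and -0.95 percentage points after removal of the trend with length and GC content.

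With a library left out, the share differences in percentage points lay between -0.572 and -0.305 for Itga5, 0.45 and 1.14 for Itga6, -1.51 and 0.096 for Itga7, -4.27 and -1.16 for Itgb1, 1.10 and 4.18 for Itgb5, -18.1 and -17.3 for Lama2, 19.7 and 20.7 for Lama5, 11.6 and 14.0 for Lamb1, -12.6 and -11.0 for Lamb2 and -1.53 and -0.38 for Lamb3. The beta subunit sum differed by between -11.7 and 21.1 FPKM with a library left out and by -25.8 FPKM at equal sums. Depth is unknown, so the counting error of low levels, such as those of Lama4, Itgb8, Itga4 and Itga10, is not known. With a pseudocount of 0.1 their log2 differences were -2.99, -1.68, 1.279 and 1.19.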

Other observations

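Some integrin ligands were present in WT replicate 1 alone or nearly so. Vitronectin (Vtn), a plasma protein made by liver and a ligand of Itgav integrins, was at 2.71 FPKM in WT replicate 1, at 0.260 and 0.240 FPKM in the other WT libraries and listed at 0 in all KO-labelled libraries. Fibrinogen gamma (Fgg), a ligand of the platelet integrin, was at 5.402 FPKM in that library and listed at 0 in the other 5. Fibronectin (Fn1), the ligand of Itga5, was also highest there, at 1536 FPKM against 1156 and 1172 FPKM in the other WT libraries and 984, 1187 and 928 FPKM in the KO-labelled ones (limma adjusted p = 0.144). These 3 genes were chosen after their values were seen. WT replicate 1 was the highest library for 7 of the 20 tested integrin and laminin genes.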
